A study of Drosophila melanogaster with 17 samples.

Results

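Proteasome subunit genes were examined in sorted cells of the adult Drosophila melanogaster midgut. Members were the features whose FlyBase symbol starts with Prosalpha, Prosbeta, Rpn or Rpt followed by a digit, which gave 48 of the 17490 features of the expression table. They comprised 32 constitutive genes and 16 paralogs whose symbol carries a T or an R after the digit, such as Prosalpha4T1 and Rpt3R. The constitutive genes were 7 of the alpha ring, 7 of the beta ring, 10 of the base and 8 of the lid.

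The proteasome is the protease that degrades proteins tagged with ubiquitin. Its barrel-shaped core is built of outer alpha rings, which gate the entry, and inner beta rings, which carry the proteolytic sites. A regulatory particle caps the barrel: its base holds the Rpt ATPases, which unfold the substrate and feed it into the core, and ubiquitin receptors, and its lid holds Rpn11, which cuts the ubiquitin chain off. In Drosophila several subunits have duplicate genes known for expression in the testis.

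Gene expression was measured by RNA sequencing of 17 libraries, each from about 10000 GFP-labelled cells sorted from midguts of adults at day 3, with RNA amplified before sequencing. The wild type groups were progenitor (n = 5), EE, the hormone-secreting enteroendocrine cells (n = 3), and EC (n = 3). The other groups were progenitors with Sox100B-RNAi (n = 3) and progenitors with Sox100B overexpression, here Sox100B-OE (n = 3), Sox100B being a transcription factor gene. The study's methods name esg-Gal4, ProsV1-Gal4 and Myo31DF-Gal4 as the drivers that labelled progenitors, EE and EC, while the driver of the Sox100B libraries is not given in the sources used here. The EC libraries carry the cell type label enterocyte but an enteroblast source name and are therefore referred to as libraries labelled EC. Nothing in the labels says that replicates came from separate animals or cultures, so that p-values measure only the spread between these libraries, which may be technical.

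Values are RPKM (reads per kilobase of gene, scaled to library size). The implied read totals were 24.1 to 59.5 M in the 11 wild type libraries and 17.4 to 29.4 M in the 6 Sox100B libraries. Sox100B itself was at 69.7 to 183 RPKM in progenitors, 20.3 to 34.4 in Sox100B-RNAi and 85.5 to 144 in the libraries labelled Sox100B-OE, so that the last group did not exceed its controls. The 5 enteroendocrine markers summed to 68106 to 79205 RPKM in EE against 628 to 13457 in the other groups. In the libraries labelled EC, the amylase gene Amy-p (42.6 to 196 RPKM against 0.423 to 4.22 in progenitors) rose, whereas Myo31DF, whose driver labelled the cells, fell by 1.54 on the log2 scale. The 3 progenitor markers matched summed to 240 to 351 RPKM in libraries labelled EC, overlapping the 273 to 527 in progenitors. The Sox100B libraries were listed differently from the wild type ones. Mitochondrial features took 17.1 to 31.8% of their assigned reads against 0 in the wild type ones, and assigned reads made up 94.5 to 95.1% of the implied total against 62.4 to 77.2%. For any contrast of Sox100B with wild type libraries, genotype and processing therefore cannot be told apart.

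Of the 32 constitutive genes, 31 were detected in every library, at 290 to 19499 implied reads per gene and library (median 2220). The highest level was that of Prosbeta1, Prosalpha7 or Prosbeta5 in each of the 5 groups. Prosbeta1 averaged 157 ± 45.8 RPKM (SD, n = 5) in progenitors, Prosalpha7 averaged 200.2 ± 21.6 (SD, n = 3) in EE and 203 ± 61.5 (SD, n = 3) in libraries labelled EC. At the other end stood Rpn1, a scaffold of the base, with 11.2 ± 4.32 RPKM in progenitors, and the ATPase gene Rpt2 with 11.9 ± 4.04. RPKM divides by gene length, but how evenly the amplified RNA covered each gene was not tested, so levels of different genes are only roughly comparable. The longest members were Rpn2 (3412 exonic bases) and Rpn1 (3041). Core and regulatory genes were interleaved in the order: in progenitors Rpn6 (95.4 RPKM) and Rpn10 (68.9) averaged above Prosbeta2 (62.7), while the class medians were higher for the core. In progenitors the median over a class averaged 91.5 ± 12.1 RPKM for the alpha ring, 112 ± 19.2 for the beta ring, 35.8 ± 4.04 for the base and 45.7 ± 7.28 for the lid (SD, n = 5). Most neighbours in the order of means were not separated by more than the larger SD of the pair: 2 of 30 neighbouring pairs were in progenitors, 4 in EE, 2 in libraries labelled EC, 1 in Sox100B-RNAi and 5 in libraries labelled Sox100B-OE.

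**Figure D1:**
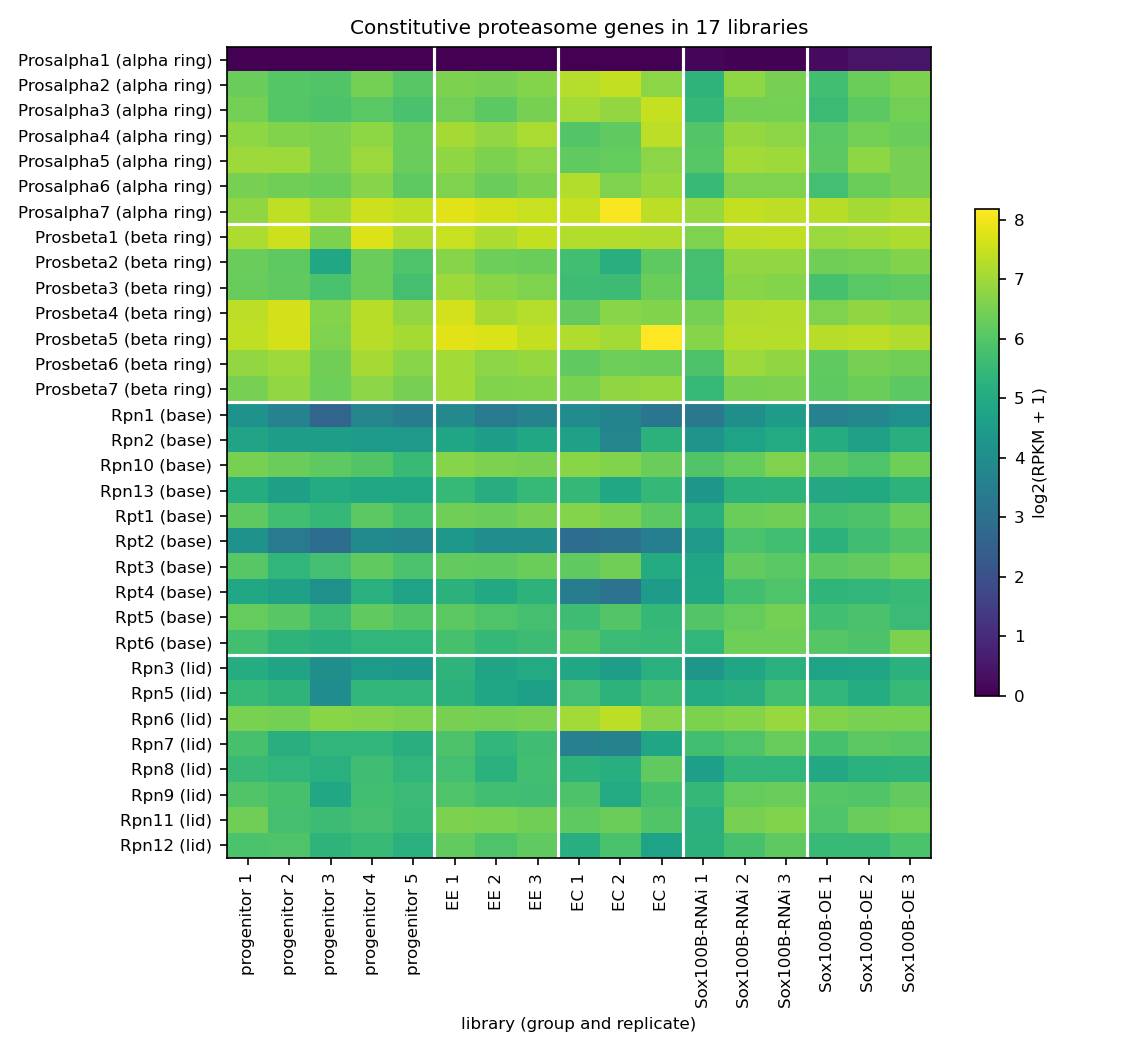
Level of the 32 constitutive proteasome genes, as log2(RPKM + 1), in each of 17 libraries (columns, white lines between groups) with genes in rows by class. Most rows keep 1 shade across the groups; Prosalpha1 is at or near 0 throughout, and Rpt2 and Rpn7 change shade between groups.

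The group means of a gene differed little. The highest group mean was a median of 1.499 times the lowest over the 31 genes, from 1.25 times for Prosbeta1 to 6.02 times for Rpt2, and it was below 2 times for 26 of the 31. Together the 31 genes took 0.411 ± 0.0579% of nuclear reads in progenitors (SD, n = 5), 0.418 ± 0.0517% in EE, 0.437 ± 0.036% in libraries labelled EC, 0.400 ± 0.0895% in Sox100B-RNAi and 0.362 ± 0.0231% in libraries labelled Sox100B-OE (SD, n = 3 each). Every group overlapped the progenitor range of 0.325 to 0.453%. Single libraries stood apart across the whole complex: Sox100B-RNAi replicate 1 was the lowest of its group for 31 of 31 genes, and progenitor replicate 3 was the lowest of 5 for 17 of 31. EE replicate 2 was the lowest of its group for 22 of 31 and EE replicate 1 the highest for 22. Sox100B-OE replicate 1 was the lowest of its group for 20 and Sox100B-OE replicate 3 the highest for 21. In Sox100B-RNAi replicate 1 mitochondrial features took 31.8% of assigned reads, against 20.9 and 21.2% in the other replicates; its part in the low values was not tested. In bulk libraries fewer cells of a type and less RNA per cell cannot be told apart.

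Prosalpha1, the alpha ring gene without a measurable level, was listed at 0 in all 11 wild type libraries. In the Sox100B libraries it had 1 to 7 implied reads, 0.0351 to 0.386 RPKM. The neighbouring paralog Prosalpha1R had 5 reads in all 17 libraries. The genes lie on the minus strand of BDGP6 chromosome 2R, at 7827303 to 7828678 and 7830413 to 7831771, with exonic lengths of 969 and 952 bases. They are duplicates, and how the counting treated reads that map to both is not given in the sources used here, so that both levels are uncertain. A count of 0 allows up to 3 reads, which is 0.0521 to 0.128 RPKM for Prosalpha1 in the wild type libraries, with counting error only. The other alpha ring genes were at 38.5 to 273 RPKM.

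The comparison of EE with progenitors asked how far the hormone-secreting cells differ from the cells that produce them. Here, as in every comparison, features with at least 1 RPKM in at least 3 of the libraries were tested with limma on log2(RPKM + 1), with Benjamini-Hochberg adjustment over all of them, and a call needed an adjusted p under 0.01 with a log2 fold change beyond 0.5 in size. No proteasome gene was called: 0 of 31, where limma called 34.6% of all 8161 features tested. Of the 31, 8 had an unadjusted p below 0.05, a share not counted over all features. At an adjusted p below 0.05 with no fold threshold there were 3 of 31, against 50.1% of all features. No other test than limma was run. The fold change was positive for 27 of the 31, with a median of 0.30 on the log2 scale against -0.05 over all features. The groups did not overlap for 10 genes, all higher in EE, whereas 26% of all features were higher in EE without overlap.

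Rpn11, the deubiquitinase of the lid (BDGP6 2L, 5058404 to 5059790, minus strand), had the largest difference. It was at 94.1, 91.8 and 83.0 RPKM in the 3 EE libraries and at 82.8, 53.7, 47.4, 53.6 and 45.8 RPKM in progenitors 1 to 5. The groups did not overlap, with only progenitor replicate 1 near the EE range, and the log2 fold change was 0.68 ± 0.21 (limma SE, adjusted p = 0.0203). Prosbeta3, a beta ring subunit, was next at 0.67 ± 0.19 (adjusted p = 0.0151), with 94.8 to 124 RPKM in EE against 53.5 to 80.3. Both fell short of the threshold. Without progenitor replicate 1, Rpn11 was the 1 gene called, where 30.8% of all features were called.

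The ubiquitin receptors of the base had like patterns. Rpn10, which binds ubiquitin chains (3L, 21537000 to 21538582, plus strand), was at 101, 93.7 and 89.7 RPKM in EE and at 89.3, 78.5, 70.5, 60.5 and 45.8 in progenitors. Rpn13, a receptor that in mammals also docks the deubiquitinase Uch-L5 (2R, 13958545 to 13960404, minus strand), was at 43.6, 32.8 and 43.8 RPKM in EE and at 32.3, 24.0, 31.7, 28.2 and 28.7 in progenitors. All EE libraries lay above all progenitor libraries for both, by narrow margins. The log2 fold changes were 0.49 ± 0.22 (adjusted p = 0.0861) and 0.45 ± 0.17 (adjusted p = 0.0506). By class the median was 0.43 for the base, 0.35 for the alpha ring, 0.24 for the lid and 0.17 for the beta ring. The size depends on the scaling: the median over the 31 genes was 0.06 after quantile normalization, which also moved the median of all features to -0.22. Among nuclear genes without shared bases, rescaled, the sign turned, with a median of -0.18 for the proteasome genes against -0.46 over all features.

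None of the catalytic subunits was called between these cell types. Prosbeta1, with caspase-like activity (2R, 16013805 to 16014787, minus strand), was at 179, 143 and 171 RPKM in EE and at 143, 187, 93.9, 214 and 147 in progenitors. Prosbeta2, with trypsin-like activity (3L, 14999951 to 15001319, plus strand), was at 103, 82.6 and 79.1 RPKM in EE and at 78.2, 69.5, 28, 77.6 and 60.2 in progenitors. Prosbeta5, with chymotrypsin-like activity (2R, 10819978 to 10821178, plus strand), was at 221, 206 and 171 RPKM in EE and at 168, 201, 96.3, 157 and 132 in progenitors. The progenitor range of Prosbeta1 enclosed the EE range, the Prosbeta5 ranges overlapped, and those of Prosbeta2 lay apart by under 1 RPKM. The log2 fold changes were 0.11 ± 0.25, 0.56 ± 0.32 and 0.43 ± 0.24 (limma SE, adjusted p = 0.731, 0.169 and 0.151). Progenitor replicate 3 was the lowest library for Prosbeta1, Prosbeta2 and Prosbeta5 in that group.

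**Figure D2:**
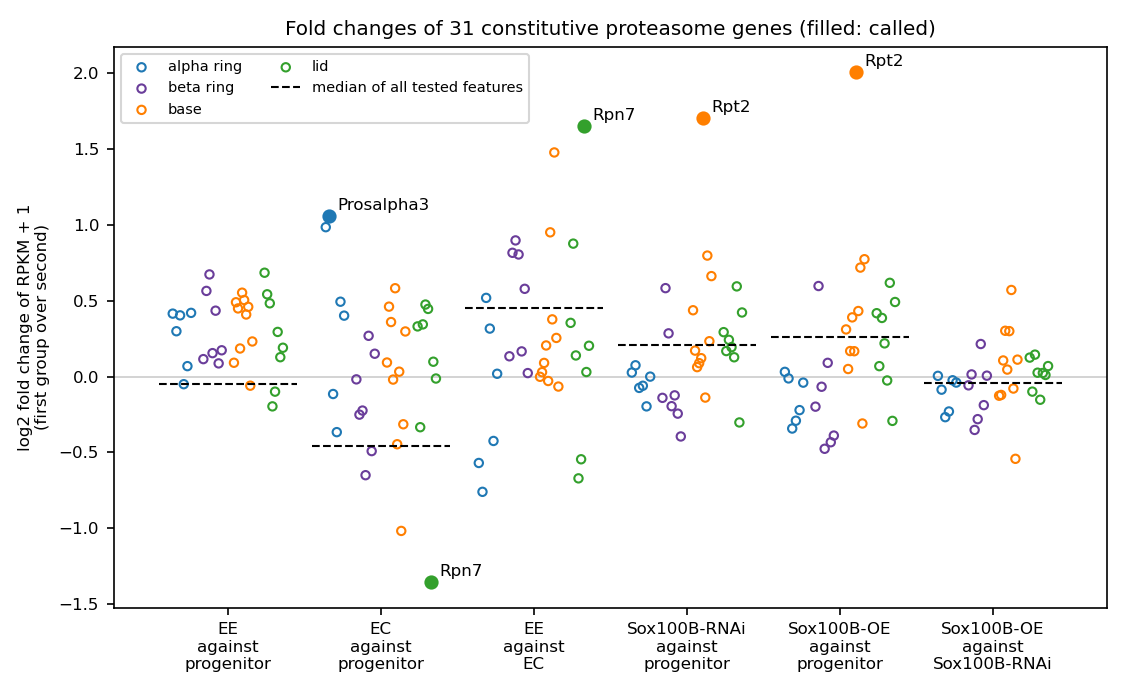
Log2 fold change of RPKM + 1 (first group over second) for 31 constitutive proteasome genes in 6 comparisons, by class; filled points are called and dashed lines mark the median of all features tested. Prosalpha3, Rpn7 and Rpt2 are the called genes, and the points of the libraries labelled EC spread from -1.35 to 1.06.

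Libraries labelled EC differed from progenitors in both directions within the complex. Of the 31 genes 2 were called, against 20% of all 7762 features, of which 3.56% were called higher and 16.5% lower. Prosalpha3 rose and Rpn7 fell. The median over the 31 genes was 0.09 on the log2 scale against -0.46 over all features, and 27 of the 31 lay above the median of all features. Under median-of-ratios scaling the median of all features moved to -0.05 and the median of the 31 genes to 0.56. Then 4 genes (Prosalpha2, Prosalpha3, Prosalpha6 and Rpt1) were called higher and 0 lower, where 12.2% of all features were called.

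Prosalpha3 encodes a subunit of the outer ring (2R, 20994900 to 20996118, plus strand). It was at 130, 115 and 174 RPKM in libraries labelled EC and at 88.3, 63.8, 58.5, 66.4 and 55.2 in progenitors. All 3 lay above every progenitor, with a log2 fold change of 1.06 ± 0.24 (limma SE, adjusted p = 0.0074). Prosalpha2, another subunit of that ring, was at 106 to 170 RPKM against 61.3 to 88.3, also without overlap, and missed the threshold (0.98 ± 0.24, adjusted p = 0.0102). The call of Prosalpha3 was lost without any 1 library except progenitor replicate 1, with adjusted p up to 0.0252, while the fold change stayed between 0.89 and 1.19.

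Rpn7, a structural subunit of the lid (3R, 22460662 to 22462054, minus strand), was at 10.9, 11.5 and 27.2 RPKM in libraries labelled EC and at 54.3, 34.5, 40.7, 40.5 and 34 in progenitors. EC replicates 1 and 2 lay close together, and replicate 3 was the nearest to progenitors. The log2 fold change was -1.35 ± 0.32 (limma SE, adjusted p = 0.00775), and the call was lost without any 1 library except EC replicate 3 (adjusted p up to 0.0413), under median-of-ratios scaling (-0.88) and after quantile normalization (-0.99). The ATPase gene Rpt4 had the same shape, with 9.90, 7.62 and 22.1 RPKM against 16.3 to 35.6 (-1.02 ± 0.35, adjusted p = 0.0386). Without EC replicate 3, the deepest library, Rpn7 (-1.76), Rpt4 (-1.43) and Prosalpha2 (1.18) were called. Over all features 23.1% were then called.

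The fold changes were also summarised by class. The median was 0.45 for the alpha ring, 0.21 for the lid, 0.06 for the base and -0.22 for the beta ring, whose members had 5 negative fold changes of 7. EC replicate 3 had 288 RPKM of Prosbeta5 against 146 and 131 in the other EC replicates. For Prosbeta1 the libraries labelled EC were close, at 150.3, 150.5 and 147 RPKM. Prosbeta2 was at 51.0, 34.1 and 69.3 RPKM. Fold changes of these catalytic genes ran from -0.25 to 0.27 and none was called. Rpn10 was at 104, 98.1 and 78.6 RPKM, Rpn11 at 69.9, 79.6 and 61.1, and Rpn13 at 42.4, 28.6 and 42.7, all overlapping progenitors (log2 fold changes 0.46, 0.33 and 0.36).

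The direct comparison of EE with libraries labelled EC called 1 of 31 genes, against 32.7% of all 7847 features. Rpn7 rose in EE, where it was at 58.0, 41.7 and 50.3 RPKM, above all 3 libraries labelled EC (1.65 ± 0.37, adjusted p = 0.00595). This call too was lost without any 1 library except EC replicate 3, with adjusted p up to 0.0287, and under median-of-ratios scaling (1.20) and quantile normalization (1.15). Without EC replicate 2 the 1 gene called was Rpn12 (1.18), and without EC replicate 3 there were 5 (Rpn7, Rpt4, Rpt2, Prosbeta3 and Prosalpha4). Over all features the shares called were then 27.9 and 43.8%. Groups did not overlap for 13 genes, 9 higher in EE (44.7% of all features were) and 4 lower, namely Prosalpha2, Prosalpha3, Rpn5 and Rpn6 (15.2% of all features were). Under median-of-ratios scaling the calls turned to 2 genes lower in EE, Prosalpha3 (-1.23) and Rpn5 (-1.13), with the median of all features moving from 0.45 to 0.06 and that of the 31 genes from 0.17 to -0.30. The comparisons of EE and EC with progenitors share the 5 progenitor libraries.

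**Figure D3:**
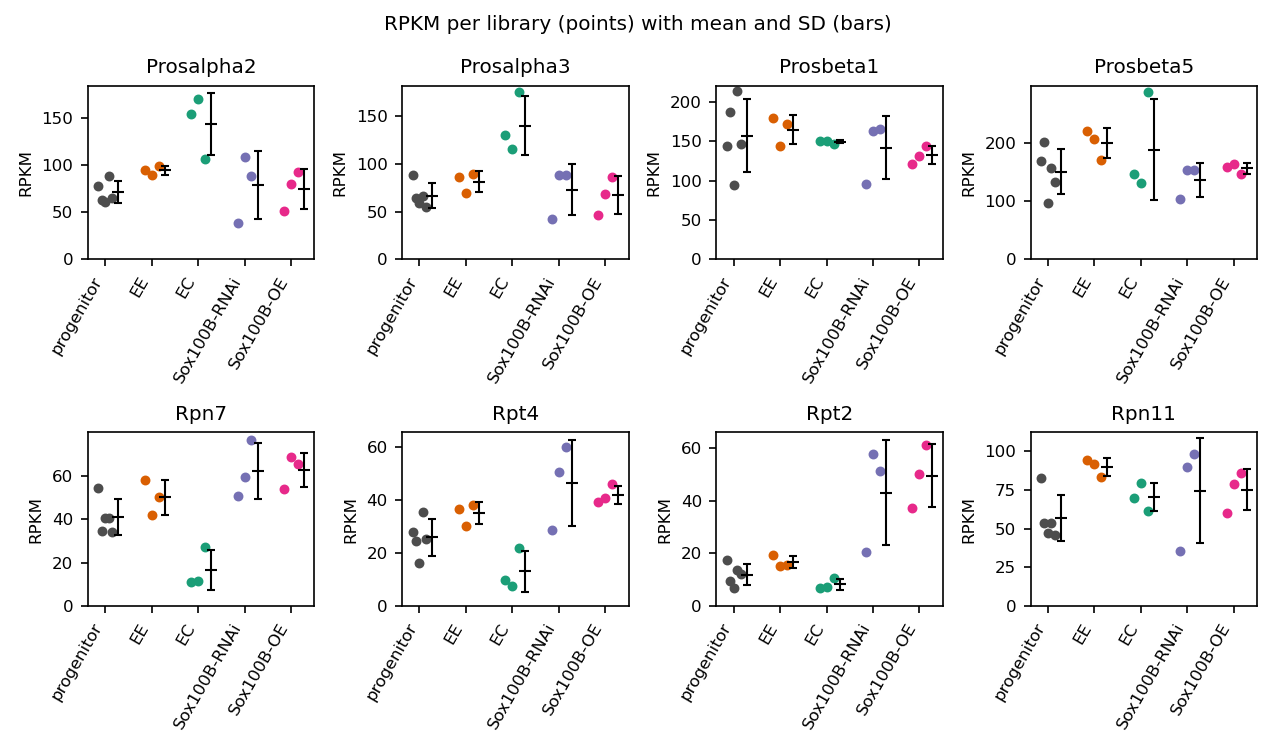
RPKM per library (points, in replicate order) of 8 proteasome genes in the 5 groups, with mean and SD (bars; n = 5 for progenitor, 3 elsewhere). Rpn7 and Rpt4 are low in EC replicates 1 and 2, Prosalpha2 and Prosalpha3 are highest in EC, and Rpt2 is highest in the Sox100B groups.

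The Sox100B-RNAi libraries were set against progenitors to ask what loss of Sox100B changes. Of the 31 genes 1 was called, against 25.3% of all 8675 features. That share depended on the features used. Among nuclear genes that share no exonic bases with another gene, rescaled, it was 3.56% of 4687, with 0 of 19 members called. Rpt2, the called gene, shares exonic bases and was not among these 19. Rpt2, an ATPase of the base that in yeast helps open the gate of the core (3R, 23929873 to 23931558, minus strand), was at 20.3, 57.6 and 51.1 RPKM in Sox100B-RNAi and at 17.3, 9.35, 6.81, 13.8 and 12.1 in progenitors. All 3 lay above every progenitor, replicate 1 by the least (1.70 ± 0.38, adjusted p = 0.00541). The call was lost without progenitor replicate 2 or 5 or Sox100B-RNAi replicate 2 or 3 (adjusted p up to 0.0467), and the fold change then ran from 1.43 to 1.73. It was also lost after quantile normalization (1.25, adjusted p = 0.0109) and with progenitor replicates 1 to 3 or 4 and 5 alone (1.82 and 1.53). The median over the 31 genes was 0.12 against 0.20 over all features; its sign turned under median-of-ratios scaling (-0.08 against 0.02) and quantile normalization (-0.25 against -0.37). In EE, Rpt2 was at 19.4, 15.1 and 15.4 RPKM, and in libraries labelled EC at 6.74, 7.27 and 10.6.

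Libraries labelled Sox100B-OE gave the same gene. Rpt2 was at 37.3, 49.98 and 61.1 RPKM, above every wild type library (2.003 ± 0.287, adjusted p = 0.000328), and was the 1 of 31 called, against 33.7% of all 8918 features. This call held under every alternative in which Rpt2 was tested, with fold changes from 1.57 to 2.19. With nuclear genes that share no exonic bases alone, rescaled, 13.1% of 4823 features and 0 of 19 members were called. Rpt2 was not among these 19. Among the 6 Rpt genes, which assemble into 1 ring, Rpt2 took 3.41 to 5.65% of their summed RPKM in progenitors, 4.76 to 5.75% in EE and 2.27 to 4.84% in libraries labelled EC, and was the lowest of the 6 in all 11 wild type libraries. It took 9.465 to 13.8% in Sox100B-RNAi and 11.9 to 14.8% in libraries labelled Sox100B-OE. Both contrasts share the progenitor libraries.

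Another 3 genes followed Rpt2 in the libraries labelled Sox100B-OE without passing the threshold. Rpt6 was at 58.5 to 93.7 RPKM against 34.4 to 51.2 in progenitors (0.77 ± 0.20, adjusted p = 0.0104). Rpt4 was at 39.4 to 46.0 against 16.3 to 35.6 (0.72 ± 0.23, adjusted p = 0.0287). Rpn7 was at 53.9 to 68.6 against 34 to 54.3 (0.62 ± 0.19, adjusted p = 0.0224). The median over the 31 genes was 0.07 against 0.26 over all features. The base had a median of 0.35 and the lid of 0.30, while the alpha ring stood at -0.13 and the beta ring at -0.20. Without progenitor replicate 1, Rpt6 (0.85) and Rpn7 (0.72) were called beside Rpt2, where 31% of all features were called. Median-of-ratios scaling, which moved the median of all features from 0.26 to 0.01, turned the median of the 31 genes to -0.23 and called 4 core or lid genes lower (Prosalpha4, Prosbeta6, Prosbeta7 and Rpn8) and Rpt2 higher. Under that scaling 34.6% of all features were called.

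None of the other genes described in every library was called in the Sox100B libraries. In Sox100B-RNAi, Prosbeta1 was at 95.4, 163 and 166 RPKM, Prosbeta2 at 52.9, 116 and 114, and Prosbeta5 at 103, 153 and 154. In libraries labelled Sox100B-OE they were at 121, 131 and 144, at 83.2, 87.9 and 98.8, and at 158, 164 and 146 RPKM. Prosbeta2, which in libraries labelled Sox100B-OE lay above every progenitor, had fold changes of 0.58 ± 0.38 and 0.60 ± 0.32, neither of them called (adjusted p = 0.296 and 0.161). Rpn10 was at 61.2, 74.8 and 95.1 RPKM in Sox100B-RNAi and 68.9, 60.4 and 81.0 in libraries labelled Sox100B-OE. Rpn11 was at 35.6, 89.6 and 98.0 and at 60.2, 78.9 and 86.1, and Rpn13 at 19.2, 36.9 and 38.3 and at 29.5, 30.5 and 38.3. Prosalpha3 was at 42.4, 88.1 and 87.99 RPKM in Sox100B-RNAi and 46.6, 68.3 and 86.2 in libraries labelled Sox100B-OE, overlapping progenitors, and at 85.9, 68.9 and 89.2 in EE. Rpn7 was at 50.7, 59.2 and 76.4 RPKM in Sox100B-RNAi and 53.9, 68.6 and 65.1 in libraries labelled Sox100B-OE. Replicate 1 of Sox100B-RNAi was the lowest of its group in each case.

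Between the Sox100B groups, which share how they were listed, 0 of 31 genes were called with limma, against 16% of all 8848 features. At an adjusted p below 0.05 with no fold threshold there were 0 of 31, against 28.9% of all features. Of the 31, 1 had an unadjusted p below 0.05. That gene was the ATPase gene Rpt5, at 51.1, 55.2 and 46.4 RPKM in libraries labelled Sox100B-OE and at 63, 74.6 and 87.6 in Sox100B-RNAi. The groups did not overlap, and the log2 fold change was -0.54 ± 0.20 (adjusted p = 0.0791). Rpt2 had 0.30 ± 0.39 (adjusted p = 0.602). The median over the 31 genes was 0.00 against -0.04 over all features. Leaving out each library in turn gave 0 calls throughout.

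Rpt2, Rpn7 and Rpt4 had a feature of position in common, examined after the values were seen. Of the 32 constitutive genes 13 share exonic bases with a gene on the opposite strand in the annotation: 12 toward their 3 prime end, where the stretch in Rpt6 stops 141 bases short of that end, and Rpn9 at both ends. Whether the reads were counted by strand is not given in the sources used here, and without strand the reads of a gene and its antisense partner cannot be told apart. Rpt2 shares its last 116 of 1625 exonic bases with CG31142, Rpn7 the last 88 of 1393 with CG34376, Rpt4 the last 93 of 1465 with wuho, and Rpt6 182 of 1404 with CG1801. In libraries labelled Sox100B-OE the 6 highest fold changes against progenitors were all of genes that share bases, as were the 5 highest in Sox100B-RNAi, the 3 lowest in libraries labelled EC, the 4 highest in EE against EC and the 3 lowest in Sox100B-OE against Sox100B-RNAi. Against progenitors, the lowest gene in libraries labelled Sox100B-OE (-0.48) also shares bases, while the next lowest does not. At the remaining ends this was not so. The highest and the lowest gene in EE against progenitors (Rpn11 and Rpn5) share none. The same holds for the highest in libraries labelled EC (Prosalpha3) and the lowest in EE against EC (Prosalpha3). It holds also for the lowest in Sox100B-RNAi (Prosbeta7) and the highest in Sox100B-OE against Sox100B-RNAi (Rpt3).

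The genes were also split by the length of the shared stretch, at 50 bases, after the values were seen. The medians did not follow that length in every comparison. In libraries labelled Sox100B-OE the median fold change was 0.62 for the 7 genes sharing 81 to 264 bases, -0.20 for the 5 sharing 1 to 24 bases and 0.05 for the 19 sharing none. In Sox100B-RNAi these medians were 0.59, 0.03 and 0.07. In libraries labelled EC they were -0.25, -0.22 and 0.33, and in EE 0.43, 0.15 and 0.30. In EE against EC they did follow the length, at 0.82, 0.25 and 0.03. No gene without shared bases exceeded 0.44 in either Sox100B group against progenitors, whereas Prosbeta5, with 81 shared bases, was at -0.12 and 0.09. Between the Sox100B groups the medians were 0.07, -0.28 and -0.02.

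**Figure D4:**
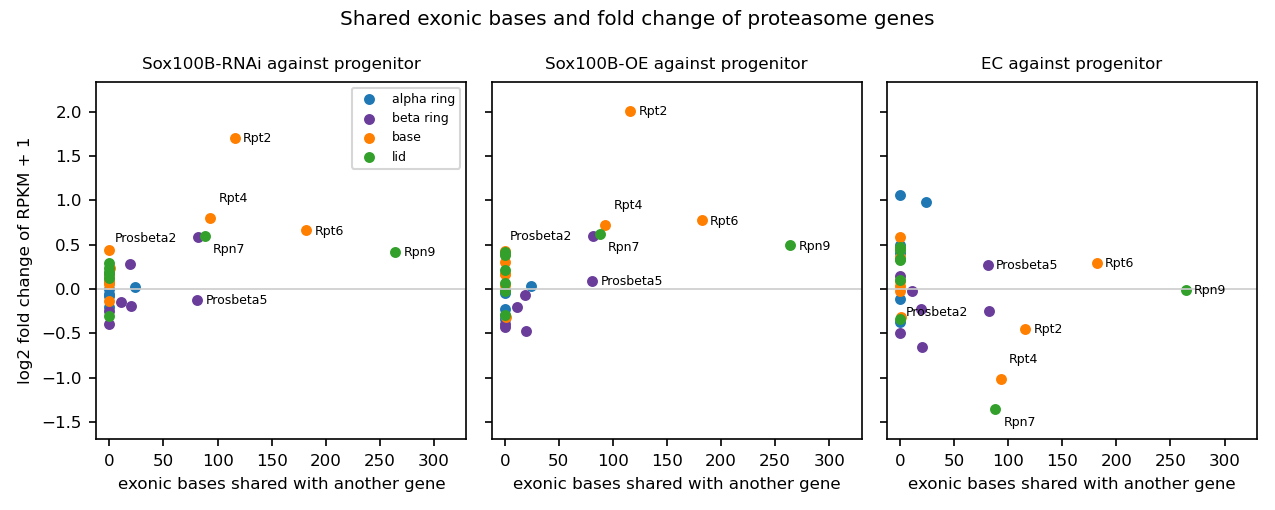
Log2 fold change of RPKM + 1 of 31 proteasome genes against the number of exonic bases each shares with another gene, in 3 comparisons with progenitors. In both Sox100B panels the highest points are genes with 82 or more shared bases, and in the EC panel Rpn7 and Rpt4 are the lowest.

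The partners of Rpt2, Rpt4, Rpt6 and Prosbeta2 were themselves at higher RPKM in the Sox100B libraries, with no overlap with progenitors. CG31142, partner of Rpt2, was at 1.70 to 7.49 RPKM in progenitors, 37.5 to 88.0 in Sox100B-RNAi and 66.8 to 102 in libraries labelled Sox100B-OE; it was also at 17.1 to 19.7 in EE and 10.7 to 13.1 in libraries labelled EC. The gene wuho, partner of Rpt4, was at 4.70 to 10.2 RPKM in progenitors, 16.97 to 30.9 in Sox100B-RNAi and 21.8 to 27.1 in libraries labelled Sox100B-OE. CG1801, partner of Rpt6, was at 0.0280 to 0.0426 RPKM in progenitors against 3.87 to 8.32 and 6.47 to 9.77, and Reck, partner of Prosbeta2 over 82 bases, at 0.0348 to 0.123 against 4.12 to 8.60 and 6.06 to 6.38. In libraries labelled EC, CG34376 (6.27 to 9.50 RPKM) and wuho (1.74 to 6.66) stood beside 8.83 to 21.2 and 4.70 to 10.2 in progenitors, with overlap. The part of the shared bases in the Rpt2, Rpn7 and Rpt4 results was not tested. Of the called genes Prosalpha3 shares none, and when the table was restricted to nuclear genes without shared bases and rescaled, it stood at 0.89 (adjusted p = 0.02).

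The 16 paralogs were at or near the limit of detection, and 0 of them passed the filter in any comparison. Each had at least 1 read in some library, but 13 stayed below 0.5 RPKM in all 17, the highest at 0.283. Prosalpha6T, Prosbeta5R1 and Rpn12R had 3 reads each over all libraries. Their constitutive counterparts Prosalpha6, Prosbeta5 and Rpn12 were at 44.2 to 150.1, 96.3 to 288 and 25.6 to 73.2 RPKM. A few reads in these paralogs may come from their abundant counterparts where sequences are alike, so that such levels are uncertain.

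**Figure D5:**
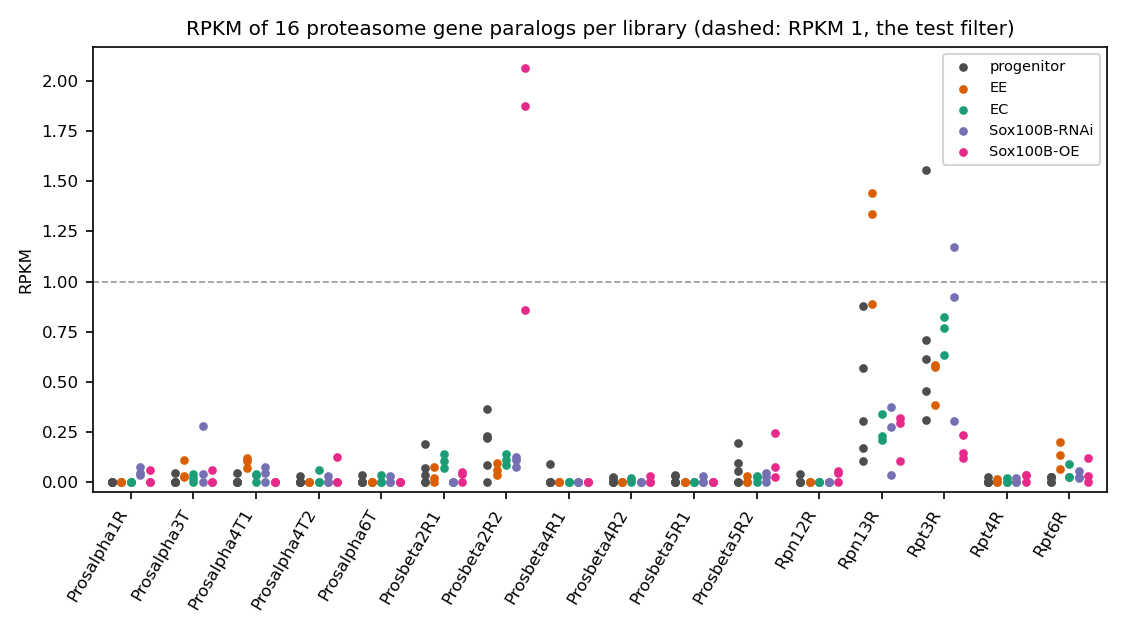
RPKM of the 16 paralogs in each library, coloured by group, with the filter of 1 RPKM as a dashed line. Points above 1 occur for Prosbeta2R2, Rpn13R and Rpt3R, and 13 paralogs lie below 0.5 throughout.

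The other 3 paralogs reached 1 RPKM in some library. Prosbeta2R2, a duplicate of the trypsin-like subunit gene, was at 0.860, 1.88 and 2.07 RPKM in libraries labelled Sox100B-OE and at 0 to 0.366 in the other 14 libraries, with 120 of its 189 reads in the former. With no filter on low values it was called higher there than in progenitors (1.12, adjusted p = 0.00366). Rpn13R was at 1.34, 0.888 and 1.44 RPKM in EE, above the 0.104 to 0.877 of progenitors, with 151 of 274 reads in EE. Rpt3R was at 0.311 to 1.56 RPKM in progenitors, at 0.307, 0.924 and 1.17 in Sox100B-RNAi and at 0.120, 0.238 and 0.147 in libraries labelled Sox100B-OE, which held 14 of its 454 reads. The testis germline list of 10 genes summed to 24.5 to 36.5 RPKM in libraries labelled Sox100B-OE and 9.73 to 20.1 in progenitors, mostly from twe and bol. Of the other genes in the list, betaTub85D, Mst87F, aly, can and sa were at 0 to 0.238 RPKM in every library, fzo reached 0.482, ocn reached 1.90 in EC replicate 3 and dj reached 2.80 in EC replicate 2. The part of germline RNA in the paralog levels was not tested.

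Genes that work with the proteasome were also counted. Of 23 listed, 20 were matched: 2 were called higher and 2 lower in EE against progenitors, 1 and 3 in libraries labelled EC, 1 and 0 in Sox100B-RNAi, 3 and 1 in libraries labelled Sox100B-OE, 3 and 0 in EE against EC, and 1 and 1 in Sox100B-OE against Sox100B-RNAi. Over all features the shares called were, in the same order, 34.6, 20, 25.3, 33.7, 32.7 and 16%, so that in none of the comparisons did the listed genes exceed the background. Among partners of the particle, Uch-L5, a deubiquitinase of the base, fell in EE. It was at 15.6, 15.1 and 10.9 RPKM there against 35.0 to 46.2 in progenitors (-1.53 ± 0.17, adjusted p = 7.49e-05). It fell also in libraries labelled EC (-0.95 ± 0.21) and Sox100B-OE (-1.32 ± 0.14), with no overlap. Sem1, the smallest lid protein, rose in libraries labelled EC, to 419, 226 and 707 RPKM against 76.1 to 108 (2.10 ± 0.34, adjusted p = 0.00174); it shares 8.67% of its exonic bases with Nuf2.

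Pomp, the chaperone of core assembly, was at 82.8, 133 and 99.0 RPKM in Sox100B-RNAi, 115, 109 and 104 in libraries labelled Sox100B-OE and 19.9 to 40.05 in progenitors (1.67 and 1.75, both called). It shares 40% of its exonic bases with vari on the other strand, and the part of that sharing was not tested. In the transcriptional group, maf-S rose in EE (1.03 ± 0.14) and its partner cnc, which in Drosophila drives proteasome gene expression, fell (-0.70 ± 0.15). In libraries labelled Sox100B-OE cnc rose by 0.68 ± 0.14. Keap1, the inhibitor of cnc, was higher there than in Sox100B-RNAi (1.43 ± 0.31).

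Of the 9 ubiquitin and shuttle genes matched, 2 were called in libraries labelled EC against progenitors, both lower. The polyubiquitin gene Ubi-p5E was at 85.6, 96.1 and 129 RPKM there, against 458 to 591 in progenitors (-2.37 ± 0.23) and 619 to 822 in EE. Rad23, which carries ubiquitinated proteins to the proteasome, was at 12.7, 10.3 and 23.0 RPKM against 61.2 to 75.7 (-2.17 ± 0.27). In neither gene did these libraries overlap progenitors. The other polyubiquitin gene, Ubi-p63E, rose in EE (1.23 ± 0.28) and in libraries labelled Sox100B-OE (1.29 ± 0.29). The medians over the 20 genes, -0.04, -0.35, 0.08 and 0.18 against progenitors in EE, EC, Sox100B-RNAi and Sox100B-OE, stood beside -0.05, -0.46, 0.20 and 0.26 over all features.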

How the data were processed

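The authors deposited 1 table of RPKM values with 17 columns. The submitters' processing notes name BDGP6, STAR, featureCounts 1.6.3 and DESeq2 without roles, and the divisor of the RPKM is not given in the sources used here. Symbols, positions and exonic lengths came from the Ensembl annotation of BDGP6, which held 17215 features; 274 had no entry, and 1 feature with missing values was dropped. Low RPKM values times exonic length were whole multiples of 1 step (98.0 to 98.5% within 0.05), which gave the implied reads; these describe depth only. Floors of 3 reads cover counting error only, since amplified reads without molecular identifiers are not independent molecules.

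Groups came from the sample titles. Pairs of groups were tested in R 4.3.3 using limma 3.58.1 (lmFit, eBayes with trend, 2-sided) on log2(RPKM + 1), pseudocount 1, which understates changes of low genes, using the filter, adjustment and thresholds given with the first comparison; the procedure was tested on simulated data. The members and lists were chosen with earlier results of these data known. Described in every library were the called members with the largest and smallest change in each class, plus Prosbeta1, Prosbeta2, Prosbeta5, Rpn10, Rpn11 and Rpn13; Prosbeta3, Prosalpha2, Rpt4, Rpt5, Rpt6, Prosalpha1, the 3 paralogs above 1 RPKM and the shared exonic bases were singled out after their values were seen. Alternatives were a filter at 3.5 RPKM or none, a pseudocount of 0.1, median-of-ratios scaling, quantile normalization, nuclear genes without shared exonic bases, 1 fit of all 17 libraries, a replicate block, progenitor replicates 1 to 3 or 4 and 5 alone, an adjusted p of 0.05 and leaving out each library.

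Of the marker lists, the progenitor list summed to 273 to 527 RPKM in progenitors, 49.7 to 104 in EE and 240 to 351 in libraries labelled EC. It summed to 708 to 877 in Sox100B-RNAi and 588 to 800 in libraries labelled Sox100B-OE. None of its 3 matched genes was called between libraries labelled EC and progenitors. The enterocyte list summed to 378 to 1147 in libraries labelled EC and 74.5 to 443 elsewhere, and the neuron list to 92.0 to 99.2 in EE and 4.21 to 18.9 elsewhere. Visceral muscle genes reached at most 12.9 and haemocyte genes 5.87 RPKM. The listed genes Ecm29, TER94, Ufd1-like, Dl, esg and Pdm1 were not matched and not analysed here. Promoter motif counts were not run.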

Additional observations from a re-analysis of the deposited data

Results flagged for a closer look

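In progenitors, the 1 group of 5 libraries, 2 of the 31 proteasome genes had a library far from the others by Dixon's criterion, and chance flags about 1 gene in 20. Rpn5, a lid subunit, was at 14.7 RPKM in progenitor replicate 3 and at 38.5 to 43.1 in the other replicates. Rpn11, the lid deubiquitinase, was at 82.8 RPKM in progenitor replicate 1 and at 45.8 to 53.7 in the others.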

How the results depend on the processing

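No called gene changed direction. Calls among the 31 genes (main counts 0, 2, 1, 1, 1 and 0) changed as follows. For EE against progenitor there was 1 under median-of-ratios scaling and 1 (Rpn6, lower) among nuclear genes without shared bases, 2 with progenitor replicates 4 and 5 alone, and 3 at an adjusted p below 0.05. Over all features the shares called were, in the same order, 35.3, 44.7, 43.2 and 50.1%. For EC against progenitor there were 0 with no filter and without shared bases (Rpn7 not tested). There were also 0 with progenitor replicates 1 to 3 or 4 and 5 alone. There were 3 with the filter at 3.5 RPKM and in 1 fit of all libraries, and 4 under median-of-ratios scaling and at 0.05. Here the shares over all features were 3.2, 21, 8.25, 11.7, 23.9, 36.6, 12.2 and 41.7%. For EE against EC there were 0 with no filter and without shared bases (Rpn7 not tested). There were 2 under median-of-ratios scaling and in 1 fit of all libraries, and 7 at 0.05. The matching shares of all features were 8.22, 28.1, 29.4, 41.2 and 50.1%. For Sox100B-RNAi against progenitor there were 0 with no filter, quantile normalization, no shared bases (Rpt2 not tested), or either set of progenitors. The shares of all features called were 11.2, 34.4, 3.56, 24.4 and 23.6%. For Sox100B-OE against progenitor there were 2 with a pseudocount of 0.1. With no filter there was 1, beside the paralog Prosbeta2R2. There were 5 under median-of-ratios scaling, 7 after quantile normalization, 0 without shared bases (Rpt2 not tested) and 4 at 0.05. Beside these stood shares of 32.5, 16, 34.6, 47.8, 13.1 and 46.5% over all features. The median of the 31 genes less that of all features moved for EC against progenitor (0.55) to 0.075 with no filter and 0.33 after quantile normalization, for EE against EC (-0.29) to 0.15 with no filter, and for Sox100B-OE against progenitor (-0.19) to 0.0499 and 0.083; for Sox100B-RNAi against progenitor (-0.08) its sign turned, to 0.10 with no filter, 0.12 after quantile normalization and 0.11 without shared bases. The cause was not tested, except that no filter adds silent features with a median near 0 and the restriction removes genes.

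Leaving out each replicate gave 0 to 1 calls for EE against progenitor, 0 to 3 for EC against progenitor, 0 to 5 for EE against EC, 0 to 1 for Sox100B-RNAi, 1 to 3 for Sox100B-OE and 0 to 0 between the Sox100B groups. The share called over all features ran from 4.31% (EC against progenitor without EC replicate 2) to 43.8% (EE against EC without EC replicate 3). In the same order of comparisons, the medians less those of all features ran from 0.26 to 0.51, 0.50 to 0.64, -0.33 to -0.13, -0.16 to 0.15, -0.28 to 0.03 and -0.23 to 0.13, so that the sign turned in the 3 comparisons with Sox100B libraries.

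The main test did not pair replicates of the same number. Correlations of their deviations ran from -0.13 to 0.34, and between the Sox100B groups they were 0.34, 0.03 and 0.16. Low correlations cannot show that no batch was shared, and whether one was is not given. With the replicate block, EC against progenitor gave 0 calls, EE against EC 2 (Rpt4 and Rpn7), EE against progenitor 0, the Sox100B contrasts with progenitor 1 each and Sox100B-OE against Sox100B-RNAi 0; for progenitors the block used replicates 1 to 3 only. Over all features the block called 0.812% for EC against progenitor and 30.7% for EE against EC.

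Depth did not limit the 31 genes, whose lowest count was 290 implied reads; it limits the paralogs and Prosalpha1.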
